A study of Mus musculus with 14 samples.

Results

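The cytochrome P450 (Cyp) genes of the mouse were followed through peak lists of 2 histone marks in the kidney, crotonylation (H3K9cr) and acetylation (H3K9ac) of lysine 9 of histone H3. The members were the RefSeq protein-coding genes of GRCm38 whose symbol is Cyp followed directly by a digit, 99 of 21883 coding genes on the chromosomes. A further 35 Cyp symbols are listed as pseudogenes or non-coding RNA and were not members. ChIP-seq libraries were made from kidneys of C57BL/6J wild-type (WT) mice and of ACSS2-/- mice aged 6 to 8 weeks, which lack the acyl-CoA synthetase ACSS2 in the whole body, with or without unilateral ureteric obstruction (UUO), in which the left ureter is tied and cut. H3K9cr was mapped in 2 libraries each of WT control, ACSS2-/- control, WT UUO and ACSS2-/- UUO kidneys. H3K9ac was mapped in 2 libraries each of WT UUO and ACSS2-/- UUO kidneys and in 1 library of each control group, so that 14 libraries were compared. The labels gave neither the sex of the mice nor the day after obstruction, the control is a sham operation in the methods, and the material was whole kidney, in which fewer cells of a type and less of a mark per cell cannot be told apart.

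Cytochrome P450 enzymes are haem monooxygenases that take electrons from P450 oxidoreductase in the endoplasmic reticulum or from ferredoxin in mitochondria. Families Cyp1 to Cyp3 mostly oxidise drugs, other foreign compounds and arachidonic acid, family Cyp4 hydroxylates fatty acids at their far end, and the higher families make or clear sterols, bile acids, steroid hormones, vitamin D and retinoic acid. In the kidney these genes are best known from the proximal tubule, where Cyp27b1 activates and Cyp24a1 breaks down vitamin D and where Cyp4a and Cyp2j enzymes convert arachidonic acid into lipid mediators. Acylation of H3K9 is a mark of active promoters, so a peak at a gene end shows that the mark was found there and says nothing by itself on the amount of transcript.

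The measure throughout was the number of bases, out of the windows 3 kb either side of both gene ends, that lay under a peak, called covered bp here. Peaks were listed by position alone, without a height, so covered bp measures how wide the called region is and not how strong it is. The lists held 15988 to 45014 peaks, the fewest in the H3K9ac libraries of UUO kidneys (15988 to 24571). Read depth is not given in the lists. Peaks at the Y-linked genes Ddx3y, Kdm5d, Uty and Eif2s3y were present in 6 libraries and absent from 8: for H3K9cr in 1 of the 2 libraries of each group, and for H3K9ac in the WT control library and in ACSS2-/- UUO replicate 2. The 2 H3K9ac control libraries therefore differed in genotype and in Y-linked peaks at once, and the 2 cannot be told apart there. Acss2 itself had peaks within 3 kb of its ends in all 14 libraries, the knockout ones included, and as the deleted part is not given in the labels this is no check of the genotype.

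Promoter sequences show how unlike the members are. RefSeq promoter windows of GRCm38 (250 bases before to 50 after a start) were found for 77 of the 99 members. The 250 bases before the listed start are printed for 7 of them, 5′ to 3′ on the strand of the gene, with each CG dinucleotide (CpG) in capitals. Cyp51, which removes a methyl group from lanosterol in cholesterol synthesis, and the orphan Cyp20a1 were covered in every library. Cyp2j5 and Cyp2j11, epoxygenases of arachidonic acid, lost coverage in UUO. Cyp2j13 had peaks in the libraries with Y-linked peaks alone. Cyp4b1 was covered in every control library and, in UUO, in those with Y-linked peaks, and Cyp3a11, the main drug-metabolising Cyp3a enzyme of mouse liver, had no peak. The listed start of Cyp2j5 lay 52 bases, that of Cyp2j13 26 bases and that of Cyp2j11 13 bases inside the annotated gene.
Cyp51, chr5:4104698-4104947, minus strand: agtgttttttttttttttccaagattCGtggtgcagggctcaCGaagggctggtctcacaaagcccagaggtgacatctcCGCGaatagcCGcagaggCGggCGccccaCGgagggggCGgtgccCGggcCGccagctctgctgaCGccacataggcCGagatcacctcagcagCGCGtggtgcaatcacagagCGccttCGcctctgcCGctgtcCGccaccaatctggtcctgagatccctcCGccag
Cyp20a1, chr1:60343050-60343299, plus strand: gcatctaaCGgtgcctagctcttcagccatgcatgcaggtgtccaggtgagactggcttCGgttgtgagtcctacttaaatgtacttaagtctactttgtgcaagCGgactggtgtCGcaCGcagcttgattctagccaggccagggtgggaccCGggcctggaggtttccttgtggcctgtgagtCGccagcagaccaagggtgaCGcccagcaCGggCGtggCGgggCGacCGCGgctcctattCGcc
Cyp2j5, chr4:96664120-96664369, minus strand: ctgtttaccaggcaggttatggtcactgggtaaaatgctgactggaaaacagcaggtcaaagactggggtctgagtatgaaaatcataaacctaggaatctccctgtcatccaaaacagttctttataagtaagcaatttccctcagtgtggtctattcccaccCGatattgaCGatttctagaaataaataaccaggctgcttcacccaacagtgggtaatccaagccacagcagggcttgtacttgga
Cyp2j11, chr4:96348681-96348930, minus strand: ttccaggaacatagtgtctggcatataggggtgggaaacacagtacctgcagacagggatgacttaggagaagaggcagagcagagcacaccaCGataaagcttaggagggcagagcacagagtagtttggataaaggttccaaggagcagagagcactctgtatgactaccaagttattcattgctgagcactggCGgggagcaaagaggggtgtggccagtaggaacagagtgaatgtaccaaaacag
Cyp2j13, chr4:96077541-96077790, minus strand: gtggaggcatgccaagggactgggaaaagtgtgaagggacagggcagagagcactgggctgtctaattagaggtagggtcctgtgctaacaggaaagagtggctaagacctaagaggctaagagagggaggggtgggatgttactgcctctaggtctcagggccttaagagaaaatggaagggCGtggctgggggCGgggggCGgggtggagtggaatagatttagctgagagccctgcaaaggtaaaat
Cyp4b1, chr4:115647722-115647971, minus strand: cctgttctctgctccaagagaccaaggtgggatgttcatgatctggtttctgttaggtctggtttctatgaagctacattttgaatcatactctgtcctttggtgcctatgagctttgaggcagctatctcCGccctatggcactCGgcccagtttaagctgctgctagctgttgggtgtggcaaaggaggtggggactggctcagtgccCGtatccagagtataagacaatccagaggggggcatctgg
Cyp3a11, chr5:145879855-145880104, minus strand: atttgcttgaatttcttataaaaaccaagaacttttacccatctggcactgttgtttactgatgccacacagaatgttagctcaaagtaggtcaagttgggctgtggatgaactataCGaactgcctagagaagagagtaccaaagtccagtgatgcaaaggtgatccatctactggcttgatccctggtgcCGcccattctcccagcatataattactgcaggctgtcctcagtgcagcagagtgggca

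These windows held 20 CpG at Cyp51 and 15 at Cyp20a1, against 3 at Cyp2j13 and Cyp4b1 and 2 at Cyp2j5, Cyp2j11 and Cyp3a11. Over the full windows of 300 bases, the median CpG count was 17 (range 3 to 31) in the 9 members with a peak in all 14 libraries, 4 (range 0 to 22) in the 23 members with a peak in 1 to 13 libraries and 2 (range 0 to 26) in the 45 without a peak. The same medians over all coding genes were 22, 9 and 3. Exceptions went both ways. Cyp4f18, a hydroxylase of leukotriene B4, had 3 CpG and a peak in all 14 libraries, and Cyp26a1, which clears retinoic acid, had 26 CpG and no peak. Of the 17 peaks at Cyp4f18 only 3 lay within 1 kb of its start, so most were not at the window whose CpG were counted.

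**Figure D1:**
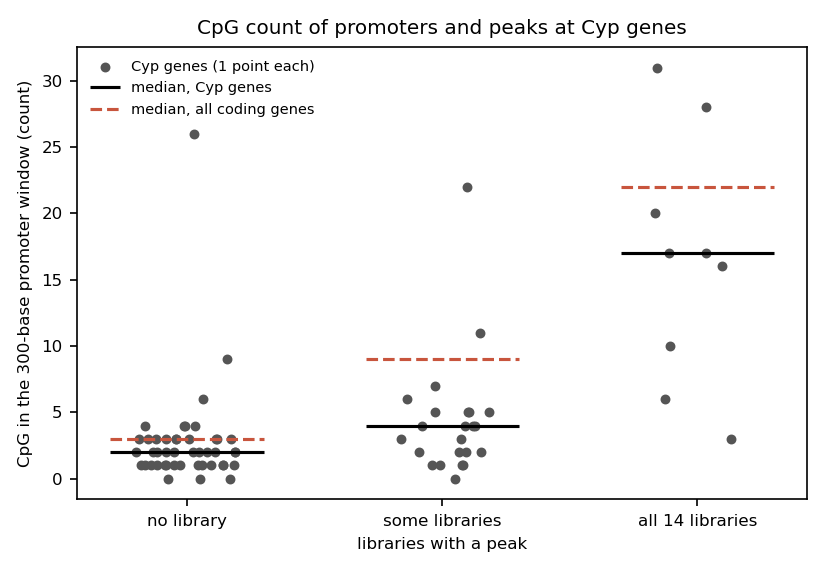
CpG count in the promoter window of 300 bases (vertical axis) for the 77 Cyp genes with a RefSeq promoter, grouped by the number of libraries with a peak at the gene ends, 1 point per gene with horizontal jitter. The median rose from 2 in genes without a peak to 17 in genes with a peak in all 14 libraries (black lines) and lay below the medians of all coding genes in each class (dashed lines, 3, 9 and 22).

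Short motifs were searched on both strands of the 300-base windows, overlaps between motifs included. The TATA box TATAAA was found in 40.3% of the 77 members and in 13.3% of all coding genes, the HNF1 half-site GTTAAT in 11.7% and 6.29%, the androgen receptor half-site AGAACA in 24.7% and 16.4%, the STAT5 site TTCNNNGAA in 6.49% and 7.83%, the dioxin response core GCGTG in 22.1% and 38.4%, the E-box CACGTG in 2.60% and 7.90% and CCAAT in 35 of the 77 members and in 6826 of 17491 coding genes. The letters CAAAGTCCA, a site of the liver and tubule factor HNF4A, were found in 11 of 77 members (14.3%) and in 0.417% of all coding genes. Of these 11 members, 10 had no peak in any library and were Cyp2c or Cyp3a genes that lie in clusters of close copies, so that several windows share their sequence. The other was Cyp8b1, the sterol 12-alpha-hydroxylase of bile acid synthesis, with a peak in 4 libraries. Of the 11 members, 4 are shown with 10 bases either side and the motif in capitals.
Cyp3a11, chr5:145879945-145879973, minus strand: aagagagtacCAAAGTCCAgtgatgcaaa
Cyp2c40, chr19:39812841-39812869, minus strand: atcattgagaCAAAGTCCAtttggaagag
Cyp2c70, chr19:40187332-40187360, minus strand: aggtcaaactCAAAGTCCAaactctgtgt
Cyp8b1, chr9:121916354-121916382, minus strand: agcctctgagCAAAGTCCAagggcaggaa

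Both marks were found at a minority of the members. No peak lay within 3 kb of an end of 57 of the 99 genes (57.6%, against 30.9% of all coding genes), 5 members had a peak in 1 library, 24 in 2 to 13 libraries and 13 in all 14 libraries (13.1%, against 48.9% of all coding genes). The 13 were Cyp20a1, Cyp27a1, Cyp46a1, Cyp2d22, Cyp4f17, Cyp4f13, Cyp39a1, Cyp1b1, Cyp2u1, Cyp51, Cyp2s1, Cyp4v3 and Cyp4f18. No peak was shared by 2 members in any library, so that genes and groups of genes with a shared peak gave the same counts. For the 32 members with a peak and a known strand, 238 of 344 peaks (69.2%) lay within 1 kb of the start of the gene.

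The members with and without peaks were divided by role. All 3 genes of vitamin D metabolism (Cyp2r1, Cyp27b1 and Cyp24a1) and 5 of the 6 genes of bile acid and oxysterol metabolism had a peak, Cyp7a1, the rate-limiting enzyme of bile acid synthesis in the liver, being the exception. Among the omega-hydroxylases 11 of 20 had a peak, and among the genes for foreign compounds and arachidonic acid 19 of 59. Of the 6 genes of steroid hormone synthesis, Cyp11a1, which opens the pathway by cleaving the side chain of cholesterol, had H3K9ac peaks in 2 libraries (707 bp in ACSS2-/- control and 331 bp in ACSS2-/- UUO replicate 2), and Cyp11b1, Cyp11b2, Cyp17a1, Cyp19a1 and Cyp21a1 had none. The adrenal cortex markers Nr5a1, Mc2r and Akr1b7 had no peak in any library, and the fourth, Star, reached up to 1.00 kb. Of the retinoic acid hydroxylases, Cyp26c1 had 1 peak of 329 bp in 1 library and Cyp26a1 and Cyp26b1 had none.

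Peaks were counted in each tandem cluster. None of the 14 Cyp2c genes at chr19:39006940-40187286, none of the 8 Cyp3a genes at chr5:145345149-146114978 and none of the 5 Cyp2b genes had a peak in any library. Cyp2c23, the arachidonic acid epoxygenase of mouse kidney, lies apart from the Cyp2c cluster at chr19:44005022-44029256 and had peaks in 6 libraries. In the Cyp4a and Cyp4b1 cluster at chr4:115106323-115647721, 4 of 10 members had a peak, in the Cyp2j cluster at chr4:96042660-96664171 4 of 7, in the Cyp2d cluster at chr15:82370527-82794452 3 of 8, and in the Cyp4f cluster at chr17:32452697-32947415 5 of 8. Cyp4a12a, known as the male-specific omega-hydroxylase of mouse kidney, and its near-identical neighbour Cyp4a12b had no peak. Reads that fit several places were removed by the authors' filter on mapping quality, and whether this emptied windows of near-identical copies was not tested.

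The members covered in every library differed in how wide and how steady their peaks were. Cyp2d22 was covered over 2506 to 4495 bp and Cyp1b1 over 1908 to 5507 bp across the 14 libraries. Cyp2u1, a long-chain fatty acid hydroxylase, stayed between 862 and 1724 bp, and Cyp4f16 was covered in 13 libraries over 347 to 729 bp. Cyp46a1, the cholesterol 24-hydroxylase best known from brain, ranged from 465 bp to 3299 bp, and Cyp4f18 was between 346 and 1348 bp in 13 libraries and at 3281 bp in WT UUO H3K9cr replicate 1.

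At the other end, 5 members had a peak in 1 library, all for H3K9cr. Cyp2d9 (348 bp) and Cyp2a4 (773 bp), a steroid 15-alpha-hydroxylase, were found in ACSS2-/- control replicate 1, the longest list with 45014 peaks. Cyp1a2 (669 bp), a caffeine-oxidising liver enzyme, was found in WT control replicate 2, Cyp4f40 (403 bp) in WT UUO replicate 2 and Cyp26c1 in ACSS2-/- UUO replicate 1. The dioxin-inducible Cyp1a1 had 390 bp in WT control replicate 1 and 485 bp in ACSS2-/- control replicate 1 and no other peak.

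**Figure D2:**
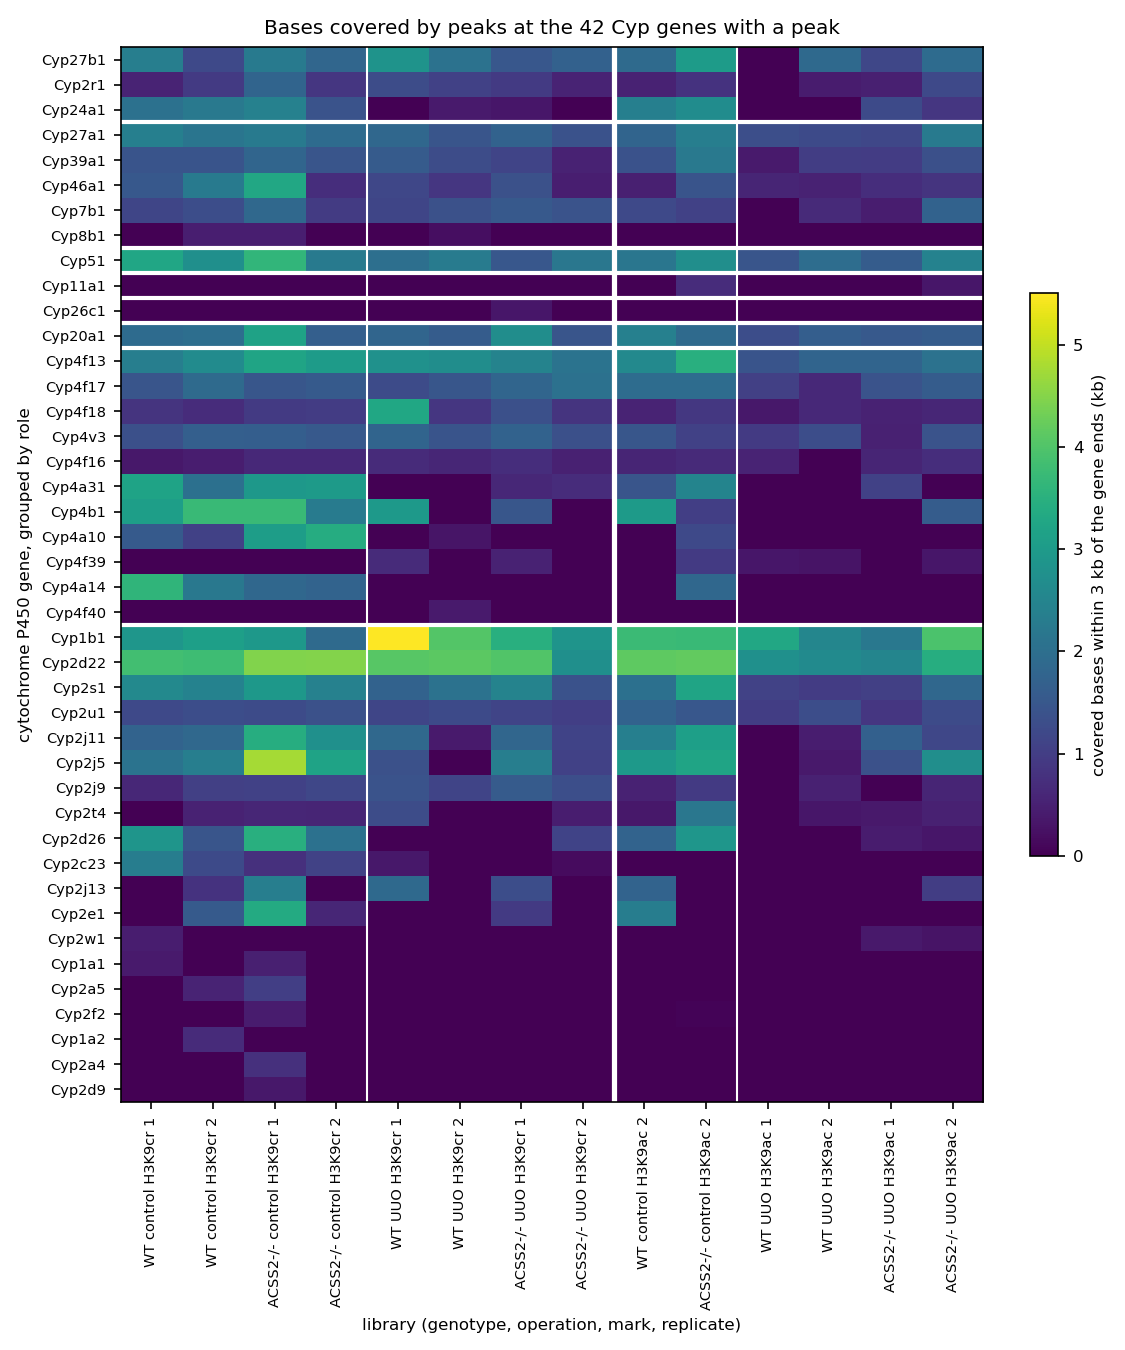
Covered bp (colour, in kb) within 3 kb of the gene ends for the 42 Cyp genes with a peak (rows, grouped from top to bottom as vitamin D, bile acids and oxysterols, cholesterol, steroid hormones, retinoic acid, orphan, omega-hydroxylases, foreign compounds and arachidonic acid) in each of 14 libraries (columns, H3K9cr on the left, H3K9ac on the right, control before UUO). Cyp2d22 and Cyp1b1 were broad in all libraries, and Cyp4a10, Cyp4a14, Cyp4a31, Cyp24a1 and Cyp2d26 were covered in H3K9cr control libraries and at or near 0 in most UUO libraries.

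Fewer members carried an H3K9cr peak in UUO than in control libraries, and Cyp4a14 was the one member that went from all control libraries to none. For H3K9cr, a peak was found at 29 and 33 members in WT control, 36 and 30 in ACSS2-/- control, 25 and 23 in WT UUO and 27 and 24 in ACSS2-/- UUO libraries. The mean was 32.0 ± 3.16 (SD, n = 4) in control and 24.8 ± 1.71 (SD, n = 4) in UUO libraries, and the ranges did not overlap. The share of all coding genes with a peak was 60.3% ± 1.35 in control and 60.8% ± 1.41 in UUO libraries (SD, n = 4 each). When each list was cut to the same number of longest peaks, the counts of members were 21.5 ± 2.08 and 18.8 ± 1.71 (SD, n = 4 each). Their ranges, 19 to 24 and 17 to 21, overlapped, so the difference of -7.25 genes became -2.75. After the same cut, the share of all coding genes with a peak was 44.8 to 48.2% in control and 50.4 to 51.7% in UUO libraries. That share was thus higher in UUO without overlap, while the mean count of members was lower.

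The covered length of the members followed their number. Members carried 53.0 to 76.9 kb under H3K9cr peaks in control libraries and 30.5 to 47.7 kb in UUO libraries. The mean covered bp of a member was 0.454 ± 0.0501 times that of all coding genes in control libraries and 0.331 ± 0.0372 times in UUO libraries (SD, n = 4 each). For H3K9ac, 27 members had a peak in the WT control and 30 in the ACSS2-/- control library, 15 and 21 in WT UUO and 24 and 28 in ACSS2-/- UUO libraries, so that the control and UUO ranges overlapped.

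**Figure D3:**
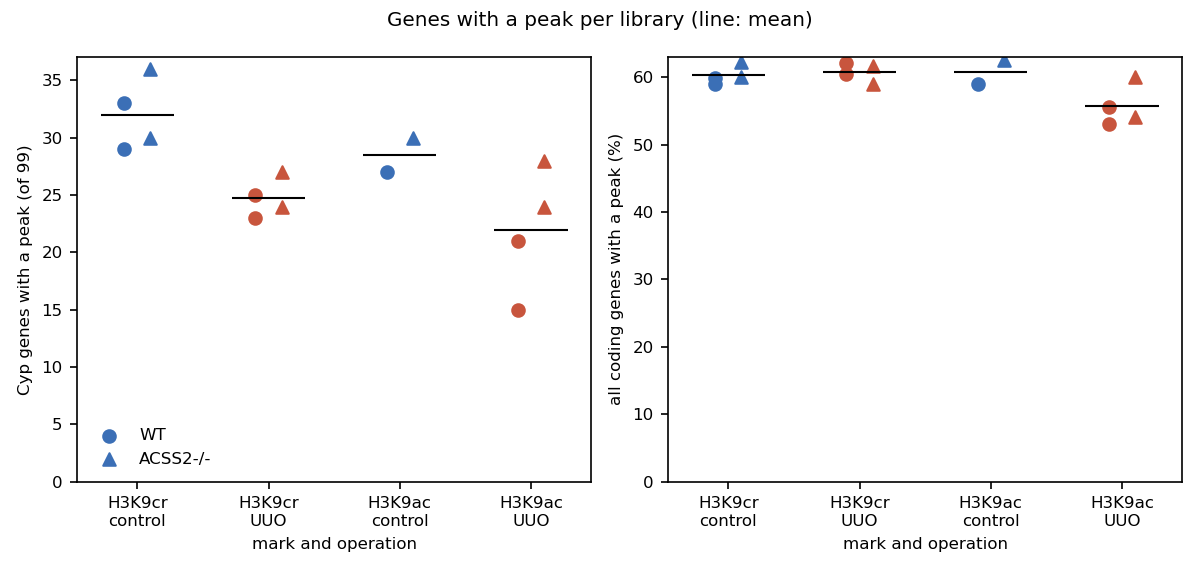
Number of Cyp genes with a peak (left, of 99) and share of all coding genes with a peak (right, in percent) in each library by mark and operation, with WT as circles, ACSS2-/- as triangles and the mean as a line. For H3K9cr the 4 UUO libraries (23 to 27 members) lay below the 4 control libraries (29 to 36), while the share of all coding genes was 58.9 to 62.1% and 59.0 to 62.2%.

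Covered bp was compared between groups by limma, fitted over the 14446 coding genes with a peak in at least 2 libraries, of which 37 were members, with Benjamini-Hochberg adjustment over all genes tested and a call at an adjusted p under 0.05. Between UUO and control kidneys of both genotypes, H3K9cr coverage fell at 8 members (21.6% of 37) and rose at 0, against 9.83% of all genes tested that fell and 1.99% that rose. The median difference was -302 bp over the 37 members and -175 bp over all genes tested. By an exact permutation test per gene, 0 members passed after adjustment in either direction, since 4 libraries against 4 cannot go below p = 0.0286. An unadjusted p under 0.05 was reached by 7 of 36 members and 2266 of 14378 genes by permutation. By limma it was reached by 13 of 37 members and 3801 of 14446 genes.

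The omega-hydroxylases Cyp4a10, Cyp4a14 and Cyp4a31, neighbours on chromosome 4 (chr4:115486200-115579015 from the start of Cyp4a14 to the end of Cyp4a31) that hydroxylate fatty acids and arachidonic acid and are textbook targets of PPARA, fell most. H3K9cr at Cyp4a14 covered 3602 and 2202 bp in WT control, 1840 and 1763 bp in ACSS2-/- control and 0 bp in all 4 UUO libraries, and fell by 2352 bp (SE 256, limma adjusted p = 0.000812). It was the only member with an H3K9cr peak in all 4 control and in no UUO library, a pattern shared by 0.399% of the 14797 coding genes with an H3K9cr peak. Cyp4a10 had 1558 and 1061 bp in WT control, 3065 and 3414 bp in ACSS2-/- control, 0 and 317 bp in WT UUO and 0 bp in both ACSS2-/- UUO libraries, and fell by 2195 bp (SE 166, limma adjusted p = 0.000155). Cyp4a31 had 3185 and 2040 bp in WT control, 2935 and 2997 bp in ACSS2-/- control, 0 bp in both WT UUO and 618 and 692 bp in ACSS2-/- UUO libraries, and fell by 2462 bp (SE 276, limma adjusted p = 0.000892). In none of the 3 genes did the control and UUO libraries overlap. H3K9ac was found in fewer controls: the WT control library had no peak at Cyp4a10 and Cyp4a14 and 1447 bp at Cyp4a31, and the ACSS2-/- control library had 1211, 1841 and 2476 bp.

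Cyp24a1, the 24-hydroxylase that inactivates vitamin D, fell for both marks. Its H3K9cr covered 2058 and 2229 bp in WT control, 2418 and 1418 bp in ACSS2-/- control, 0 and 388 bp in WT UUO and 335 and 0 bp in ACSS2-/- UUO libraries, and fell by 1850 bp (SE 226, limma adjusted p = 0.00117). Its H3K9ac covered 2384 and 2668 bp in the 2 control libraries, 0 bp in both WT UUO and 1235 and 861 bp in ACSS2-/- UUO libraries, and fell by 2002 bp (SE 276, limma adjusted p = 0.00137). The gene at chr2:170482957-170497145 overlaps Pfdn4, to an end of which 8 of its 14 peaks were nearer, so the coverage cannot be assigned to Cyp24a1 alone. The other genes of vitamin D metabolism were not called for H3K9cr: Cyp27b1, the 1-alpha-hydroxylase, had 1205 to 2355 bp in control and 1497 to 2838 bp in UUO libraries, and Cyp2r1, the 25-hydroxylase, 538 to 1785 bp and 552 to 1276 bp, and both ranges overlapped.

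Of the genes for foreign compounds and arachidonic acid, 4 fell. Cyp2d26 (chr15:82790107-82794452) had 2874 and 1448 bp in WT control, 3484 and 2064 bp in ACSS2-/- control, 0 bp in both WT UUO and 0 and 1116 bp in ACSS2-/- UUO libraries, and fell by 2189 bp (SE 385, limma adjusted p = 0.00604). Cyp2c23 had 2340 and 1242 bp in WT control, 773 and 1093 bp in ACSS2-/- control, 350 and 0 bp in WT UUO and 0 and 165 bp in ACSS2-/- UUO libraries, and fell by 1233 bp (SE 221, limma adjusted p = 0.00656), and 5 of its 9 peaks were nearer to Erlin1. Both were without overlap between control and UUO libraries, as was Cyp27a1, the mitochondrial sterol 27-hydroxylase, which had 1934 to 2386 bp in control and 1388 to 1842 bp in UUO libraries and did not pass the limma test. In all, 7 of the 41 members with an H3K9cr peak were lower without overlap, against 13.0% of coding genes with such a peak, and 0 were higher, against 2.28%.

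The epoxygenases Cyp2j5 (chr4:96627432-96664171) and Cyp2j11 (chr4:96294508-96348693) fell with overlap between the groups. H3K9cr at Cyp2j5 covered 2099 and 2345 bp in WT control, 4757 and 3196 bp in ACSS2-/- control, 1369 and 0 bp in WT UUO and 2364 and 1074 bp in ACSS2-/- UUO libraries, and fell by 1898 bp (SE 473, limma adjusted p = 0.0282). At Cyp2j11 it covered 1749 to 3424 bp in control and 390 to 1860 bp in UUO libraries, and fell by 1156 bp (SE 327, limma adjusted p = 0.0476), and this call was lost in 21 of 28 alternative settings. The values of the same 2 genes were lowest in WT UUO replicate 2 for H3K9cr and in WT UUO replicate 1 for H3K9ac. Both lists were without Y-linked peaks and were the shorter of their group (30406 and 15988 peaks).

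**Figure D4:**
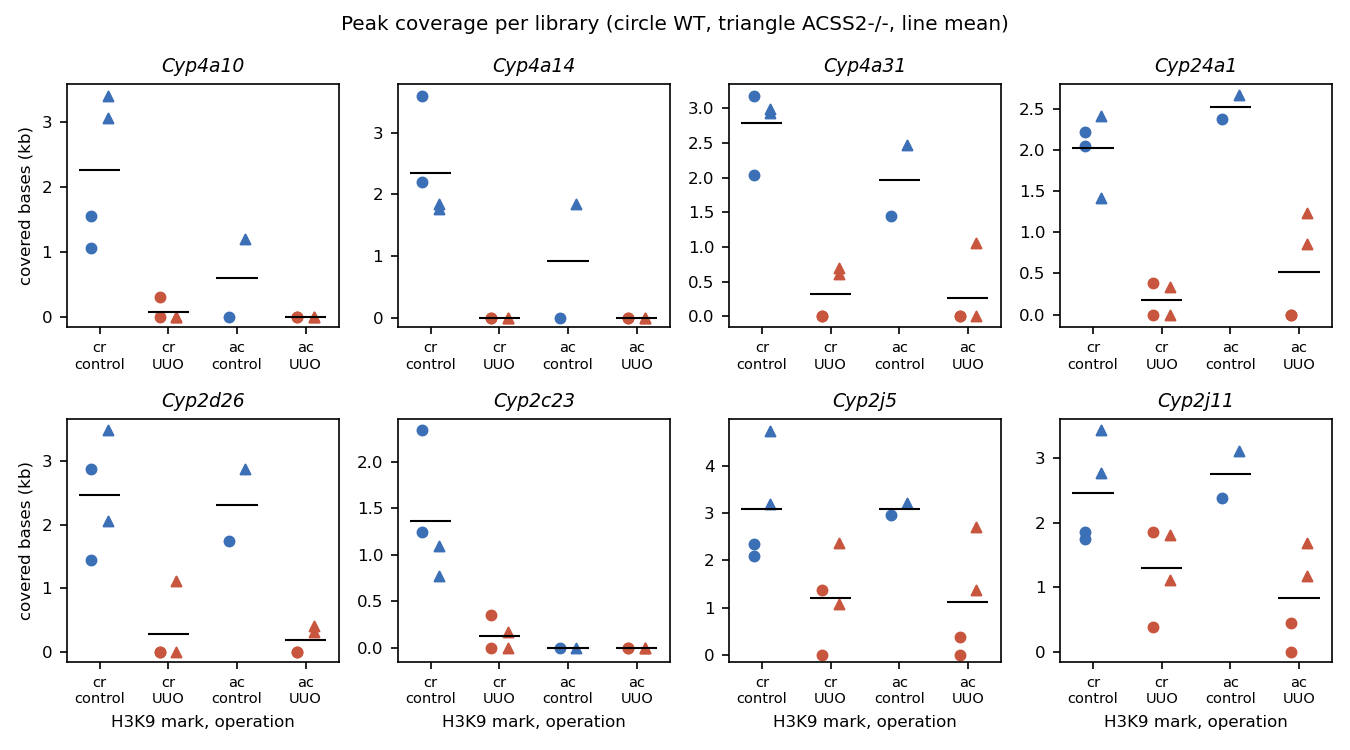
Covered bp (vertical axis, kb) in each library by mark (cr, H3K9cr; ac, H3K9ac) and operation for the 8 Cyp genes called lower for H3K9cr in UUO, with WT as circles, ACSS2-/- as triangles and the mean as a line. Cyp4a14 was at 0 in the 4 H3K9cr UUO libraries, and Cyp2j5 and Cyp2j11 overlapped between control and UUO.

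When covered bp was first divided by the mean of each library, 7 of the 8 members (all but Cyp2j11) stayed lower, against 5.76% of all genes tested, and Cyp1b1, a dioxin-inducible hydroxylase of oestrogens, was called higher, against 3.62%. Over all genes the split moved from 287 higher and 1420 lower to 523 higher and 832 lower. Cyp1b1 covered 2887, 3118, 2935 and 1908 bp in the H3K9cr control libraries and 5507, 4039, 3476 and 2855 bp in the UUO libraries, and without the scaling the difference of 1257 bp (SE 476) did not pass (limma adjusted p = 0.124). With a term for libraries with Y-linked peaks and no scaling the same difference passed (SE 308, limma adjusted p = 0.0233), as 1 of 37 members higher against 3.21% of all genes tested. Of the other broad members, Cyp2d22 covered 3794 to 4495 bp in control and 2746 to 4124 bp in UUO libraries, and Cyp51 2276 to 3627 bp and 1500 to 2296 bp, with limma adjusted p = 0.0993 for Cyp51. Cyp7b1, the oxysterol 7-alpha-hydroxylase, covered 960 to 1860 bp in control and 1148 to 1541 bp in UUO libraries, and the ranges overlapped.

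Within each genotype the calls were fewer. In WT kidneys H3K9cr fell in UUO at 5 members, Cyp4a10, Cyp4a14, Cyp4a31, Cyp24a1 and Cyp2c23, against 1.15% of all genes tested. In ACSS2-/- kidneys it fell at 5 members, Cyp4a10, Cyp4a14, Cyp4a31, Cyp24a1 and Cyp2d26, against 9.30% of all genes tested. These counts depended on single libraries. The WT count was 1 without WT control H3K9cr replicate 1 or WT UUO H3K9cr replicate 1, 1 lower and 1 higher without WT UUO H3K9cr replicate 2, 3 without WT control H3K9cr replicate 2 or either WT UUO H3K9ac library, and 0 with the longest 50% of peaks. The ACSS2-/- count was 2 without ACSS2-/- control H3K9cr replicate 1 or ACSS2-/- UUO H3K9cr replicate 2, 3 without ACSS2-/- UUO H3K9cr replicate 1 and 9 without ACSS2-/- control H3K9cr replicate 2. With all libraries no member rose in either genotype, against 0.990% of all genes in WT and 0.325% in ACSS2-/- kidneys. The difference of the UUO effect between genotypes was called at 0 of 37 members by limma, and 1 other gene of the 14446 was called. At an unadjusted p under 0.05 were 2 of the 37 members and 1611 of the 14446 genes. Cyp4a10 came nearest, which fell by 1151 bp (SE 235) in WT and fell by 3240 bp (SE 235) in ACSS2-/- kidneys (limma adjusted p of the difference = 0.105).

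Markers of cell types changed beside these genes, and their part in the result was not tested. All markers of a list were summed as covered kb at gene ends under H3K9cr. The 6 proximal tubule genes, with Lrp2, Cubn and Slc34a1 among them, covered 14.6 to 23.9 kb in control and 1.29 to 3.38 kb in UUO libraries, and 5 of 6 fell by limma. The 6 leukocyte genes tested covered 1.69 to 2.81 kb in control and 8.50 to 24.5 kb in UUO libraries, and 5 of the 6 rose. The 5 distal nephron genes covered 9.59 to 17.1 kb in control and 6.27 to 10.1 kb in UUO libraries, with 1 of 4 tested lower.

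Other genes of the pathway were read from the same fit. Of the 6 electron donors, H3K9cr fell in UUO at Cyb5b (-1539 bp, SE 309, limma adjusted p = 0.0108) and at Fdx1, the mitochondrial ferredoxin (-1320 bp, SE 258, limma adjusted p = 0.00972). Of the 9 transcription factors that control Cyp genes, Ppara (-2481 bp, SE 318), Nr1i2 (-1074 bp, SE 223) and Rxra (-1899 bp, SE 347) fell, with limma adjusted p of 0.00149, 0.0128 and 0.00718. Ppara covered 5529 to 6000 bp in control and 2196 to 3927 bp in UUO libraries. The P450 enzymes Ptgis, prostacyclin synthase, and Tbxas1, thromboxane synthase, also fell, both epoxide hydrolases were not called, and none of the 19 genes rose.

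For H3K9ac the UUO lists held fewer peaks than the control lists (15988 to 24571 against 25585 and 32760). Their median peak was shorter (908.5 to 928 bp against 974 and 1044.5 bp). By limma 13 members fell (35.1% of 37) and 0 rose, against 39.9% of all genes tested that fell and 0.228% that rose, and the median difference was -606 bp for the members and -676 bp for all genes tested. The 13 included Cyp24a1, Cyp4a10, Cyp4a14, Cyp4a31, Cyp2d26, Cyp2j5 and Cyp2j11, all called for H3K9cr too, and Cyp4f13, Cyp2s1, Cyp4f17, Cyp39a1, Cyp2d22 and Cyp2t4. At Cyp2t4, which shares peaks with Egln2 and Rab4b, 7 of 13 peaks over all libraries were nearer to an end of another gene. Cyp4f13 covered 2599 and 3473 bp in control, 1426 and 1771 bp in WT UUO and 1781 and 2075 bp in ACSS2-/- UUO libraries, and fell by 1273 bp (SE 251, limma adjusted p = 0.00510). Cyp2s1, a retinoid and lipid peroxide metabolising enzyme of epithelia, covered 2042 and 3220 bp in control, 1081 and 981 bp in WT UUO and 1047 and 1833 bp in ACSS2-/- UUO libraries, and fell by 1396 bp (SE 339, limma adjusted p = 0.0119). Neither gene overlapped between control and UUO libraries, as was so for 12 of the 33 members with an H3K9ac peak. The share of all coding genes is not given beside this, so it does not set these genes apart. Each of the 2 control libraries was the only one of its group, which the fit assumed to vary like the other groups. After division by the library mean, Cyp24a1 was the only member called lower, against 2.92% of all genes tested. By exact permutation 0 of 33 members were called and 0 reached an unadjusted p under 0.05, since 4 libraries against 2 cannot go below p = 0.0667. By limma 15 of 37 members had an unadjusted p under 0.05, as had 7504 of the 14446 genes tested.

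The fall at Cyp4a10 differed between the marks. The difference was -2195 bp for H3K9cr and -606 bp for H3K9ac, and these differed by -1590 bp (SE 262) with a limma adjusted p of 0.0292. It was 1 of 37 members called in that direction, against 0.118% of all genes tested. No member was called in the other direction, against 1.55%. As the WT control library had no H3K9ac peak at Cyp4a10, its H3K9ac could fall in ACSS2-/- kidneys only.

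ACSS2 deletion was followed within each operation. In UUO kidneys 0 of 37 members were called for either mark by limma, and over all genes 1 was called for H3K9cr (0.00692%) and 0 for H3K9ac. At an unadjusted limma p under 0.05 were 2 members and 801 of 14446 genes for H3K9cr, and 4 members and 1096 genes for H3K9ac. By exact permutation 0 members were called and 0 reached an unadjusted p under 0.05, as 2 libraries against 2 cannot go below p = 0.333. H3K9cr at Cyp4a31 was found in both ACSS2-/- UUO and in no WT UUO library, as at 0.447% of coding genes with such a peak. H3K9ac at Cyp2d26 (417 and 324 bp), Cyp24a1 (1235 and 861 bp) and Cyp2w1 (387 and 298 bp), an orphan enzyme of the developing gut, was found in both ACSS2-/- UUO and in no WT UUO library, 3 of 29 members against 1.54% of coding genes. The 2 WT UUO lists for H3K9ac held 15988 and 18580 peaks and the 2 ACSS2-/- lists 17271 and 24571.

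In control kidneys, H3K9cr at Cyp4a10 was broader in ACSS2-/- (3065 and 3414 bp) than in WT libraries (1558 and 1061 bp), a rise of 1930 bp (SE 235, limma adjusted p = 0.0168), against 0.305% of all genes tested that rose. It was the only member called, and 0 fell, as did 0 of all genes. The median difference over all genes was 235 bp in the same direction, and after division by the library mean the call was lost. Its neighbour Cyp4a14 went the other way without passing the test, with 1840 and 1763 bp in ACSS2-/- and 3602 and 2202 bp in WT control libraries.

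Between the marks in UUO kidneys, Cyp2j9, a Cyp2j enzyme known from brain, was the only member called. H3K9cr covered 1409 and 1123 bp in WT UUO and 1576 and 1323 bp in ACSS2-/- UUO libraries, H3K9ac 0 and 512 bp and 0 and 578 bp, a difference of 1085 bp (SE 198, limma adjusted p = 0.0220), against 4.11% of all genes tested that were broader under H3K9cr and 0.159% under H3K9ac. The groups did not overlap at this gene. Taking each H3K9ac library with each H3K9cr library of the same group, 78.6 to 100% of members with H3K9ac had H3K9cr too, and 60.0 to 91.7% of members with H3K9cr had H3K9ac. Over all coding genes these shares were 93.5 to 99.4% and 84.8 to 97.4%.

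Peaks at 1 member, Cyp2j13, followed the Y-linked peaks. In every H3K9cr group the library with Y-linked peaks also had the longer list. These held 36485 against 32945 peaks (WT control), 45014 against 37456 (ACSS2-/- control), 36734 against 30406 (WT UUO) and 35638 against 27530 (ACSS2-/- UUO). For H3K9ac it was 24571 against 17271 in ACSS2-/- UUO, and 25585 with against 32760 without between the 2 controls. The part of list length in this split was not tested. Cyp2j13 (chr4:96042660-96077566), an epoxygenase known from male mouse kidney, covered 810 and 2366 bp in the H3K9cr control libraries with Y-linked peaks (WT replicate 2, ACSS2-/- replicate 1), 1890 and 1304 bp in the H3K9cr UUO libraries with them, 1750 bp in the H3K9ac WT control and 991 bp in H3K9ac ACSS2-/- UUO replicate 2. In the 8 libraries without Y-linked peaks it had no peak. Of 15132 coding genes with a peak, 5 had a peak in those 6 libraries and in none of the other 8 (0.0330%), and these were Cyp2j13 and the 4 Y-linked genes that defined the split. With a term for Y-linked peaks in the limma fit, Cyp2j13 was 1472 bp (SE 219) broader in libraries with them and Cyp4b1 1622 bp (SE 273), with limma adjusted p of 0.0585 and 0.0658, and 0 of 37 members were called, against 0.0623% of all genes tested.

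Cyp4b1 (chr4:115624698-115647721), a hydroxylase of fatty acids and foreign compounds, had 2300 to 3727 bp in the 4 H3K9cr control libraries. In UUO it kept a peak in the libraries with Y-linked peaks (H3K9cr 2967 and 1474 bp, H3K9ac 1598 bp), which also had the longer list of their group. It had none in the 5 without. With the Y-linked term in the fit it was among 9 members called lower in UUO for H3K9cr and 14 for H3K9ac, against 13.5% and 40.2% of all genes tested, and without the term it was called for neither (limma adjusted p = 0.0653 for H3K9cr). Cyp2e1, the ethanol-inducible enzyme, which androgen raises in mouse kidney, had H3K9cr peaks in 3 of the 4 H3K9cr libraries with Y-linked peaks (1550, 3364 and 926 bp), in 1 of the 4 without (597 bp), and an H3K9ac peak of 2329 bp in the WT control library. It had no peak in WT UUO H3K9cr replicate 1 or ACSS2-/- UUO H3K9ac replicate 2, which have Y-linked peaks. The neighbour Cyp2j11 had peaks in 13 libraries of both kinds. In each H3K9cr group it was broader in the library with Y-linked peaks. It covered 1860 against 1749 bp in WT control and 3424 against 2769 bp in ACSS2-/- control. In UUO it covered 1860 against 390 bp in WT and 1809 against 1118 bp in ACSS2-/- libraries.

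**Figure D5:**
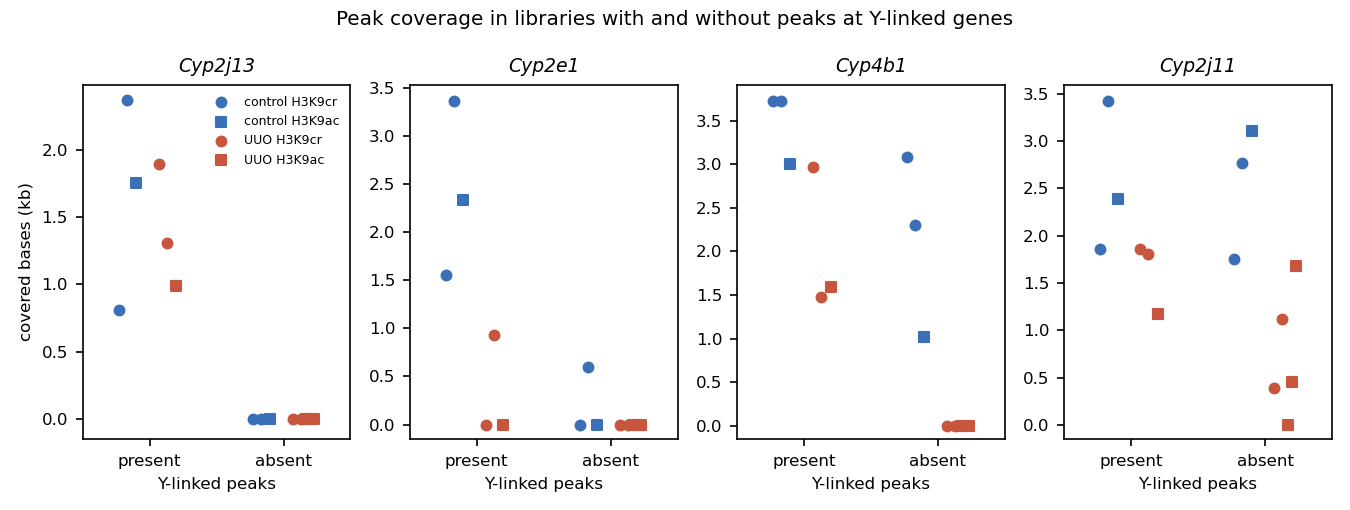
Covered bp (vertical axis, kb) of 4 Cyp genes in the 6 libraries with and the 8 without peaks at Y-linked genes, with control in blue, UUO in red, H3K9cr as circles and H3K9ac as squares. Cyp2j13 was covered in all 6 and in none of the 8, Cyp4b1 was at 0 in the 5 UUO libraries without Y-linked peaks, and Cyp2j11 was covered on both sides.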

How the data were processed

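The data were 14 ChIP-seq peak lists, 1 per library, from mouse kidney. According to the methods, the authors cleaned the reads, aligned them by Bowtie2, dropped PCR duplicates along with organelle and poorly mapped reads, and ran MACS2 on each library. The submitters' processing notes name mm10 and ChIPseeker, and tool versions and the MACS2 control are not given in the sources used here. The deposited lists hold positions with no score, signal or read count. Groups and replicates came from the labels. In 4 lists the mouse number in the peak names differs from the replicate in the label, and the label was kept.

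Members and lists were chosen with earlier results of these data known. Windows of 3 kb either side of both ends of 21883 RefSeq coding genes of GRCm38.p6 were intersected with the peaks (at least 1 bp), and covered bp was counted. Strand was known for members with a promoter sequence. limma 3.58.1 (R 4.3.3, trend and robust) was fitted with 8 group means over the 14446 genes with a peak in at least 2 libraries, Benjamini-Hochberg over all of them. The labels do not say that libraries came from separate mice, so p-values measure the spread between libraries. The paper states that H3K9ac was mapped in the same samples as H3K9cr. The fit held no term for shared mice, so tests between the marks took all libraries as separate. Which libraries share a mouse is not known, as WT UUO had Y-linked peaks in 1 H3K9cr and in no H3K9ac library. Named members were those called in a contrast, those with a peak in all libraries of one group and none of the other, those in all libraries, and textbook kidney genes. Genes and sequences used to illustrate promoters and the split by Y-linked peaks were picked with their values in view. The alternatives tried were a 1 kb window, the whole gene, a stricter overlap, longest 50% of peaks, equal numbers of longest peaks, division by the library mean, other filters, each mark alone, limma without trend, exact permutation, a replicate block, a Y-linked term and each library left out. The code was tested on simulated data and against bedtools 2.31.1. Python 3.11.15, numpy 2.4.6, pandas 2.3.3 and matplotlib 3.10.9 were used. 1 gene of the leukocyte marker list is not reported here.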

Additional observations from a re-analysis of the deposited data

Results flagged for a closer look

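The UUO effect at Cyp4a10 differed between the marks by a test of the difference itself. Covered bp fell by 1590 bp more for H3K9cr than for H3K9ac (SE 262, limma adjusted p = 0.0292), a difference of -1590 bp. The call was lost in 13 of 24 alternative settings, among them division by the library mean, the 1 kb window and the replicate block.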

How the results depend on the processing

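Over the alternatives, the 34 values of called members were recomputed 906 times. In 685 the direction and the call stayed, in 219 the call was lost without a turn of direction, and in 2 the direction turned: H3K9ac at Cyp2d22 in UUO changed by 176 bp after division by the library mean and by 144 bp with a Y-linked term added, an alternative chosen after seeing the data. For the 8 members lower for H3K9cr in UUO, 4 were called with the longest 50% of peaks, 5 in the 1 kb window and 0 by exact permutation, and 6 to 11 with each library left out. For the 13 members lower for H3K9ac, 1 was called after division by the library mean, 2 with the Y-linked term as well, 6 in the 1 kb window, 7 with each mark alone, 8 with equal numbers of peaks and 0 by exact permutation, and 7 to 14 with each library left out, 7 being without WT UUO H3K9ac replicate 1 or ACSS2-/- UUO H3K9ac replicate 1. Leaving out a lone H3K9ac control library gave no value. Over all genes tested, H3K9cr was lower in UUO at 741 of 12905 with the longest 50% of peaks (28 of them members). H3K9ac was lower at 422 of 14446 genes after division by the library mean and 406 with the Y-linked term as well. It was lower at 2139 of 13425 with each mark alone (29 members) and 3178 of 13113 with equal numbers of peaks (30 members). Members called higher for H3K9cr in UUO were Cyp1b1 after division by the library mean and with the Y-linked term, alone or together, Cyp2j9 with equal numbers of peaks and Cyp4f18 without WT UUO H3K9cr replicate 2.

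Within genotypes the alternatives were chosen after seeing the data. The 5 H3K9cr calls in WT kidneys became 0 with the longest 50% of peaks, 1 with equal numbers of peaks, 2 in the 1 kb window, 3 with each mark alone or without trend and 8 with division by the library mean and the Y-linked term together, and 1 to 5 with each library left out. The 5 in ACSS2-/- kidneys became 2 after division by the library mean, with equal numbers of peaks (1 of them higher), with the longest 50% or in the 1 kb window, 3 with division and the Y-linked term together and 8 with the Y-linked term alone or over the whole gene, and 2 to 9 with each library left out.

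For the knockout in control kidneys, the 1 call became 0 after division by the library mean (alone or with the Y-linked term), with each mark alone, by exact permutation and in the 1 kb window, 2 with the Y-linked term alone, and 0 to 1 with each library left out, 0 being without WT control H3K9cr replicate 2 or either WT UUO H3K9ac library. For the knockout in UUO, 1 H3K9cr call arose without WT UUO H3K9cr replicate 2 against 0 otherwise, and leave-one-out left H3K9ac at 0. Between the marks in UUO, the 1 call became 2 without trend, 2 over the whole gene, 3 in the 1 kb window and 0 by exact permutation, and 0 to 4 with each library left out, 4 being without ACSS2-/- UUO H3K9ac replicate 2 and 0 without ACSS2-/- UUO replicate 1 of either mark or WT UUO replicate 1 of either mark.

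The difference of the UUO effect between genotypes gave 1 call with equal numbers of peaks and 1 with the longest 50%, and 0 with any library left out. That between the marks gave 0 calls after division by the library mean (alone or with the Y-linked term), with equal numbers or the longest 50% of peaks, in the 1 kb window and under the replicate block, and 0 to 2 with each library left out. The replicate block gave 8 H3K9cr and 10 H3K9ac calls in UUO, 4 H3K9cr calls in WT and 6 in ACSS2-/- kidneys, and changed no other count of members called. Libraries with the same number in the label did not deviate together (correlation of deviations from -0.319 to 0.167 over 15 pairs of groups, above 0.1 in 3). As the mouse number in the peak names differs from the label in 4 lists, neither this nor the replicate block can show whether libraries share mice. The value of -0.319 was between the marks in ACSS2-/- UUO, where Y-linked peaks lay in replicate 1 for H3K9cr and replicate 2 for H3K9ac.

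With equal numbers of longest peaks, the difference in members with a peak between UUO and control was -2.75 for H3K9cr and -1 for H3K9ac (-7.25 and -6.5 with all peaks, -8.25 to -5.92 and -8.5 to -4.17 with each library left out), 0 members had an H3K9cr peak in all control and no UUO libraries, and 1 had the reverse for each mark. In the 1 kb window 2 members had H3K9ac in both control and no UUO libraries. The share of all coding genes with such patterns was not counted in these settings, so these counts are no result on the members. The cause of these changes was not tested.

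The lists give neither depth nor height, so a region just under the peak threshold cannot be told apart from an unmarked one. The groups hold 1 or 2 libraries.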
